A study of Mus musculus with 18 samples.

Results

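The response of L929 cells, a mouse fibroblast line, to transfected DNA was measured by comparing 3 RNA-seq libraries of cells given HT-DNA (herring testis DNA) with 3 libraries of Mock cells, 6 of the 18 libraries in the series. The members were chosen by their labels: every library labelled with HT-DNA and no other agent, and every library labelled Mock. The HT-DNA cells were wild type and received 0.5 μg/ml HT-DNA for 6 h by lipofection with Lipofectamine 2000, and the Mock cells were wild type and carry the treatment label DMSO. No label or method states that Mock cells received the transfection reagent without DNA, so the effect of the DNA and that of the reagent cannot be told apart here. The study's methods describe the 3 replicates of a group as independent cultures of 1 cell line, so the spread below is that between cultures and covers no other fibroblast. The remaining 12 libraries are of cells pretreated for 1 h with 0.5 mM AOA (aminooxyacetic acid, an inhibitor of aminotransferases), with or without 20 mM aspartate (Asp) and with or without HT-DNA, 3 libraries a group. The 6 of these that held both AOA and aspartate, 3 with HT-DNA and 3 without, gave a second comparison of the same DNA stimulus. They were cultures other than the 6 compared first.

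Double-stranded DNA in the cytosol is bound by the enzyme cGAS, whose cyclic dinucleotide product activates STING on the endoplasmic reticulum. STING recruits the kinase TBK1, which activates the transcription factor IRF3 and, with it, NF-kB. IRF3 turns on type I interferon, some chemokines and a set of antiviral genes directly, and the secreted interferon then acts through its receptor, JAK kinases and a complex of STAT proteins with IRF9 on a larger set of interferon-stimulated genes. Fibroblasts are a standard cell for this response, since they carry the whole path and secrete chemokines that draw in leukocytes.

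The 6 libraries held 20008809 to 23378882 counts each, and 14263 of the 57180 genes in the table had enough counts to be tested. The pair of replicates nearest to each other still differed by 3.52 times the variance of counting alone, so no library stood in for another. On a principal component analysis of the 6 libraries, HT-DNA replicate 2 lay apart from its group on the second component (29.6 against -15.6 and -8.47), and without it 6663 genes were called in place of 6879. The 15 fibroblast markers summed to 6000 to 6500 CPM (counts per 1000000 counts of a library, scaled by edgeR's trimmed mean of M values) in Mock and to 6980 to 7540 CPM in HT-DNA, a sum that rests mostly on Vim and S100a4. Of the 12 markers tested 3 rose (1 with library totals) and 4 fell, with a median log2 fold change of -0.13, and Pdgfra, Pdgfrb and Ddr2 were among the falls. Lox, which cross-links collagen, was at 0 in all 6, and the surface markers Thy1 and Fap were at most at 0.143 CPM. The 12 leukocyte markers summed to 2.22 to 3.32 CPM over the 6 libraries, with Ptprc and Adgre1 at 0, the 8 epithelial markers to at most 0.505 CPM and the 7 endothelial markers to at most 2.15 CPM. As in any bulk sample, fewer cells that hold an RNA and less of it per cell cannot be told apart.

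HT-DNA was followed by changes in a large share of the transcriptome, most of them small. Of the genes tested, 6879 were called, that is, had a Benjamini-Hochberg adjusted p under 0.05 in edgeR's quasi-likelihood test of HT-DNA against Mock, which is 48.2% of all genes tested. Of these, 3454 were higher with HT-DNA (24.2% of genes tested) and 3425 were lower (24.0%). The median absolute log2 fold change of the called genes was 0.479. With a change of at least 1 on the log2 scale, 189 genes were higher (1.33%) and 434 were lower (3.04%). All 3 HT-DNA libraries lay above or below all 3 Mock libraries for 8737 genes (61.3%), and these shares are the background for each count below. The split into rises and falls depended on the scaling of the libraries: 50.2% of calls were higher and 49.8% lower after scaling by edgeR's trimmed mean, but 35.2% were higher and 64.8% lower with library totals, which moved the median log2 fold change of all genes from -0.01 to -0.12. Small shifts below are therefore relative to a median gene that was held near 0.

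**Figure D1:**
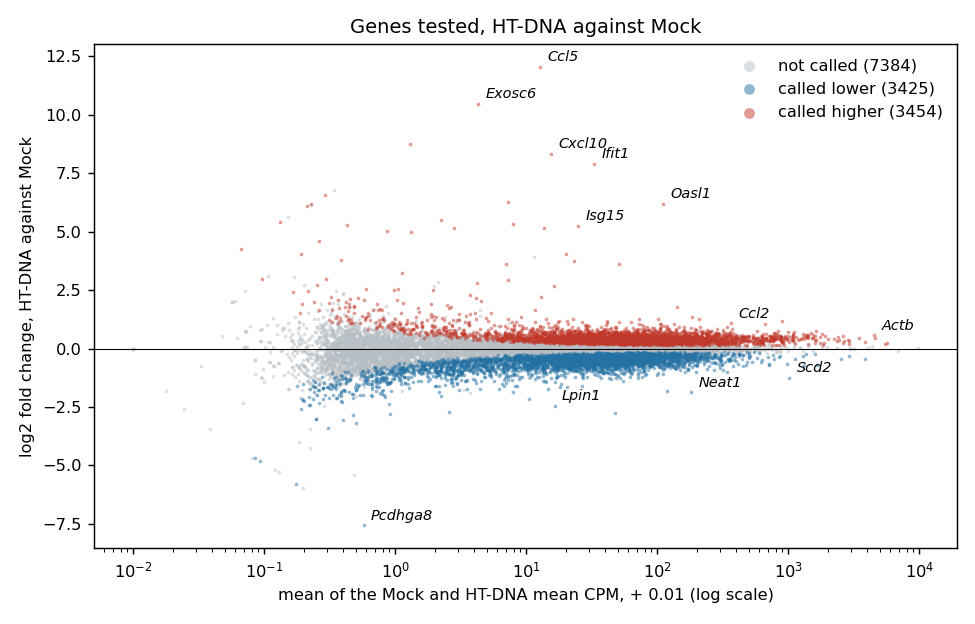
Log2 fold change of HT-DNA against Mock (vertical axis) against the mean of the 2 groups' mean CPM of each tested gene (horizontal axis, log scale, 0.01 added), 1 point a gene, with called genes coloured by direction. Rises of at least 1 on the log2 scale were fewer (189) than falls of that size (434), and the named antiviral and chemokine genes lie at the top, up to a log2 fold change of 12.05 for Ccl5, whose fitted value depends on the 0 counts in Mock.

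The antiviral effectors of the interferon response formed the largest group of strong rises. Of the 56 tested among 60 members, 41 rose and 1 fell, with a median log2 fold change of 1.00 beside -0.01 over all genes, and 25 rose by at least 1. The filter used all 18 libraries, so some members were tested through other groups. Tgtp2 and Gbp7, counted as rises, were at no more than 0.354 and 0.474 CPM in any HT-DNA library. The ubiquitin-like modifier Isg15 (ENSMUSG00000035692) stood at 1.35, 1.4 and 0.997 CPM in the 3 Mock libraries and at 44.2, 47 and 53.5 CPM in the 3 HT-DNA libraries. All 3 HT-DNA libraries were high and alike, and the log2 fold change was 5.26 ± 0.23 (SE, n = 3 a group, edgeR adjusted p = 7.0e-13). Ifit1 (ENSMUSG00000034459), which binds viral RNA that lacks cap methylation, went from 0.212, 0.18 and 0.427 CPM to 58.4, 70.1 and 69.3 CPM. Its rise of 7.90 ± 0.32 on the log2 scale started from at most 9 counts in a Mock library. Oasl1 (ENSMUSG00000041827), a relative of the oligoadenylate synthetases that restrains translation of Irf7 mRNA, stood at 2.96, 2.97 and 2.99 CPM in Mock and at 213, 216 and 228 CPM with HT-DNA, a 73.4-fold rise (log2 6.20 ± 0.13, edgeR adjusted p = 3.7e-17).

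Further effectors rose from a Mock level near the limit of counting. Rsad2, the enzyme viperin that makes a chain-terminating nucleotide, was at 0.254, 0.225 and 0.0475 CPM in Mock and at 15, 14.5 and 13.1 CPM with HT-DNA. Ifit3 was at 0.508, 0.135 and 0.475 CPM and then at 14.2, 16.5 and 15.6 CPM, and its close copy Ifit3b, which can share reads with it, had 6 counts in the 3 Mock libraries together and 278 in the 3 HT-DNA libraries, a ratio of 48.6 (95% counting interval 22.1 to 134). Oasl2 rose from 0.423, 1.22 and 0.57 CPM to 24.8, 27.6 and 26.5 CPM and Rtp4, a chaperone of receptor transport that is induced by interferon, from 2.2, 2.34 and 2.33 CPM to 36.7, 36.7 and 39.2 CPM. In each of these genes the lowest HT-DNA library stood several times above the highest Mock library. The oligoadenylate synthetases proper, which activate RNase L, rose less: Oas1a had a log2 fold change of 1.19 ± 0.12 and Oas1b one of 2.82 ± 0.21, and Oas1a shares sequence with Oas1g. The membrane protein Ifitm3, which blocks viral fusion, was already abundant at 127, 126 and 141 CPM and reached 206, 188 and 206 CPM.

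Not every classical effector moved. Ifit2, a neighbour and relative of Ifit1, was at 16.2, 18.8 and 17.8 CPM in Mock and 13.4, 21.9 and 16.8 CPM with HT-DNA, so the groups overlapped and the difference was -0.02 ± 0.19 on the log2 scale (edgeR adjusted p = 0.943). Of the large GTPases, Mx2 was at 0, 0.18 and 0.332 CPM in Mock and at 1.21, 0.9 and 0.874 CPM with HT-DNA, and Gbp3 at 0.212, 0.36 and 0.0475 CPM and 1.62, 2.13 and 2.31 CPM, both rises at a low level. Usp18, which removes Isg15 from its targets and inhibits the interferon receptor, rose from 1.61, 0.811 and 1.38 CPM to 6.72, 5.78 and 6.03 CPM. Zbp1, a sensor of Z-form nucleic acid, had 5 counts in Mock and 162 with HT-DNA, a ratio of 34.0 (95% counting interval 14.3 to 106). Outside the lists, Samd9l, an antiviral nuclease, rose by 2.69 ± 0.17. Apol9a and Apol9b, near-identical apolipoprotein L genes whose reads may be split between them, rose by 3.61 ± 0.09 and 3.73 ± 0.15. Samd9l and Apol9a were chosen after their values were seen.

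**Figure D2:**
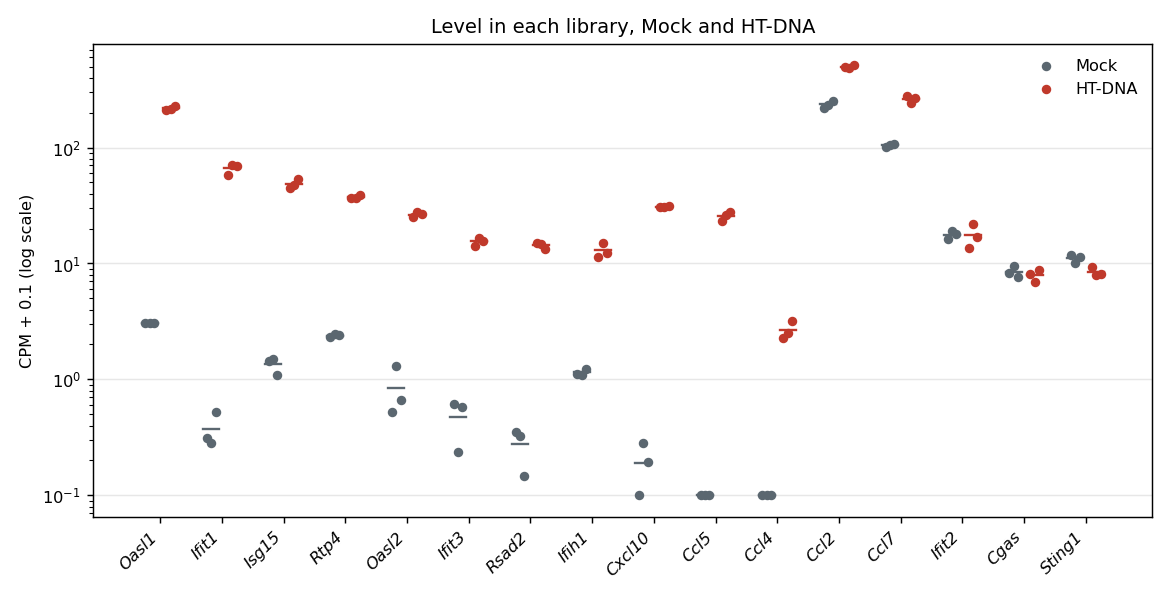
Level of selected genes in each Mock and HT-DNA library, in CPM with 0.1 added on a log axis, with 1 point a library and a bar at the mean. For the genes of the interferon and chemokine groups that rose, the 3 HT-DNA points lie together and apart from the 3 Mock points, while Ifit2 overlaps between the groups.

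The promoters of the genes with the largest rises were searched for the letters to which interferon-activated STAT and IRF factors are known to bind. The core of the interferon-stimulated response element, with its spacer bases left free, was looked for on both strands of the RefSeq promoter window from 250 bases before to 50 bases after the gene start. It was found in 370 of the 9852 tested genes that had such a window (3.76%), and in 1131 of all 32851 windows (3.44%). Of the genes higher by at least 1 on the log2 scale, 25 of 114 with a window held it (21.9%), as did 7 of the 11 with a window among the 15 largest rises (63.6%). The share was 3.89% (99 of 2546) among the genes with smaller rises and 4.67% (10 of 214) among the genes lower by at least 1. An NF-kB core motif, searched the same way, was in 5.26% of the windows of the larger rises, 3.27% of those of the larger falls and 2.07% of all tested genes. A match is a description of letters and not a bound site. Overlapping matches of a window were counted as 1 window.

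The 4 stretches below are shown because they belong to the effector and chemokine genes with the largest gains in CPM whose matches all ended before the gene start. Ifitm3 gained more than these, but its matches lay after the gene start and its stretch is not shown. The matches to the response element are in capitals, which show the letters found. They are RefSeq sequence of build GRCm38.p6, read 5′ to 3′ on the strand of the gene.
Ifit1, chr19:34640745-34640853, plus strand: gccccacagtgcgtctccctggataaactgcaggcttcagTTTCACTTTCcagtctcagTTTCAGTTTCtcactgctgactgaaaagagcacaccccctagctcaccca
Isg15, chr4:156200835-156200936, minus strand: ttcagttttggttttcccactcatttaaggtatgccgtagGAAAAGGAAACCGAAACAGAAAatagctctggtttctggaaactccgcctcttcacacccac
Cxcl10, chr5:92349053-92349139, minus strand: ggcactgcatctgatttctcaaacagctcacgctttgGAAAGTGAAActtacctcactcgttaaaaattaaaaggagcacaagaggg
Oas1a, chr5:120907526-120907585, minus strand: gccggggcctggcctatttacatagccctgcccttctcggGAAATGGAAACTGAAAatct
The Ifit1 stretch held 2 separate matches on the reverse strand, starting 104 and 85 bases before the gene start. In Isg15 there were 3 overlapping matches, the first at 78 bases before the start, and in Oas1a 2 overlapping matches at 20 and 14 bases. The single Cxcl10 match lay farther out, at 213 bases. Oasl1 and Oasl2 rose as strongly and their windows held no match, which says only that these letters are not in that window.

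The chemokines, which direct leukocytes to a site of infection, contained the steepest rises of all. Of the 13 tested among 16 members, 8 rose and 2 fell, with a median log2 fold change of 1.07. Among the 8 was Cxcl11, at 0 in Mock and at 0.152, 0.142 and 0.0437 CPM with HT-DNA, at most 3 counts a library. It was tested because the filter used all 18 libraries. Neither fall was called without Mock replicate 1, HT-DNA replicate 1 or HT-DNA replicate 2. Ccl5 (ENSMUSG00000035042), which attracts T cells and monocytes, had no count in any Mock library and stood at 22.9, 26.1 and 27.7 CPM in the 3 HT-DNA libraries. Taking 3 counts in each Mock library as the limit of detection, it was at least 189.6-fold higher, and Ccl4, an attractant of macrophages and T cells, was at least 18.9-fold higher on the same basis. Cxcl10 (ENSMUSG00000034855), which attracts T cells through CXCR3, had 6 counts in the Mock libraries together and 1969 in the HT-DNA libraries, a ratio of 344 (95% counting interval 158 to 940). Its 3 HT-DNA libraries were nearly identical at 30.7, 30.6 and 31.2 CPM.

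The monocyte attractants Ccl2 and Ccl7 were abundant without stimulation. Ccl2 stood at 221, 232 and 253 CPM in Mock and at 495, 481 and 510.2 CPM with HT-DNA, a 2.11-fold rise (log2 1.07 ± 0.09, edgeR adjusted p = 8.5e-08). Ccl7 rose 2.52-fold, from 101, 104 and 108 CPM to 279, 243 and 266 CPM. All 3 HT-DNA libraries of both genes lay above all 3 Mock libraries. Cx3cl1, a membrane-bound chemokine, rose by 0.82 ± 0.09 on the log2 scale. Cxcl1, a neutrophil attractant, was at 167, 169.5 and 173 CPM and then at 166, 154 and 160.3 CPM, with a difference that was not called (edgeR adjusted p = 0.43).

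The sensors of foreign nucleic acid fell into an RNA group that rose and a DNA group that was mixed. Of the 9 RNA sensors and their partners, 7 rose and 1 fell (median 0.42), with 6 rises on leaving out any 1 Mock or HT-DNA library. The fall was not called without HT-DNA replicate 1 or after the length and GC correction described below. Ifih1, the sensor MDA5 of long double-stranded RNA, went from 1.02, 0.991 and 1.14 CPM to 11.3, 14.9 and 12.3 CPM, a log2 rise of 3.61 ± 0.27. Dhx58, the regulator LGP2, rose by 2.20 ± 0.11, Rigi, the sensor of RNA ends, by 1.26 ± 0.15, and Znfx1, a helicase that senses RNA at mitochondria, by 1.02 ± 0.09. Of the 19 DNA-sensing genes tested, 7 rose and 5 fell, with a median of 0.05 that became -0.06 with library totals, where 4 rose. The sensor itself, Cgas, was at 8.13, 9.46 and 7.55 CPM in Mock and 7.98, 6.77 and 8.69 CPM with HT-DNA, and was not called. Sting1 fell by 1.32-fold, from 11.8, 10 and 11.3 CPM to 9.3, 7.82 and 7.95 CPM (log2 -0.40 ± 0.10, edgeR adjusted p = 0.00435). Tbk1 fell by 1.49-fold, from 59.5, 60.5 and 58.5 CPM to 38.8, 42.9 and 38.4 CPM. Aim2, the sensor of the DNA inflammasome, had a log2 fold change of -0.68 ± 0.17. Trex1, the exonuclease that degrades cytosolic DNA, rose from 2.12, 2.61 and 2.18 CPM to 4.19, 5.26 and 5.68 CPM. The largest rise of the DNA-sensing list was Zbp1, given above, at a log2 fold change of 4.97 ± 0.57. Irf7, given below, is also among its rises.

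No interferon transcript reached the level at which it could be tested. The 9 ligand genes listed each had at most 1 count in any Mock or HT-DNA library, and Ifnb1, the first interferon made by fibroblasts, had 0 counts in all 6. A count of 0 allows up to 0.126 to 0.151 CPM (3 counts) in each of these libraries, for counting error only, so a lower level was not detectable at this depth. Libraries of cells given HT-DNA after AOA held 6, 4 and 2 counts of Ifnb1, and those given HT-DNA after AOA with aspartate held 1, 0 and 0.

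The receptor and JAK-STAT genes moved little beside the effectors they control. Of 19 tested members, 8 rose and 4 fell (7 with library totals), with a median log2 fold change of 0.15. Stat2 and Irf9, which act together in the response to interferon, rose by 0.66 ± 0.10 and 0.70 ± 0.08. Irf1 and Irf7, transcription factors of the response, rose by 0.77 ± 0.09 and 1.00 ± 0.16. Irf7, which is counted in the DNA-sensing list and not in this one, was at 2.45, 2.34 and 2.47 CPM in Mock. With HT-DNA it was at 4.55, 4.97 and 4.98 CPM. Irf5, the largest rise of the list after Usp18, remained under 3 CPM in every library. The receptor chain Ifnar1 fell by 1.42-fold and the kinase Jak1 by 1.44-fold.

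Genes of MHC class I presentation, which loads peptides for T cells, shifted upward by small amounts. Of 16 members, 11 rose and 1 fell, with a median of 0.39, and none reached 1. Psmb10, an immunoproteasome subunit, rose by 0.79 ± 0.15, the non-classical H2-T23 by 0.62 ± 0.14 and the peptide pump Tap1 by 0.49 ± 0.11. The class I heavy chain H2-K1 stood at 667, 645 and 699 CPM and then at 847, 830.1 and 906 CPM, a log2 rise of 0.36. Nlrc5, the transactivator of these genes, fell from 42.1, 38.8 and 36.3 CPM to 28.8, 27.1 and 26.1 CPM. After a length and GC correction, which removes each library's trend on gene length and GC content and was chosen after seeing the data, the list gave 6 rises and 3 falls, and H2-K1 was no longer called.

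Cytokines and NF-kB targets gave a smaller response than the chemokines. Of 10 cytokines tested among 18, 5 rose and none fell. Among the 5 were the inflammatory Il6, from 0.169, 0.18 and 0.19 CPM to 0.606, 0.663 and 0.786 CPM, the alarmin Il33, the EGF receptor ligand Hbegf and the macrophage growth factor Csf1. Csf1, which sustains macrophages, went from 1420.5 ± 64.8 CPM to 1834 ± 40.5 CPM (SD, n = 3). Tnf and Lif were not called, with differences of 0.15 ± 0.20 and 0.00 ± 0.12.

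Of 22 NF-kB subunits, feedback genes and targets, 11 rose and 4 fell (median 0.28), and 2 fell without HT-DNA replicate 1 or after the length and GC correction. The costimulatory receptor Cd40 was the only rise above 1, from 24.2, 26.1 and 25.8 CPM to 59, 56.8 and 57.3 CPM. Relb rose by 0.75 ± 0.14, and of the inhibitors of NF-kB, Nfkbib rose by 0.63 ± 0.11 and Nfkbia by 0.47 ± 0.09. The deubiquitinase Cyld fell by 1.49-fold, a call that was lost after the length and GC correction. Tnfaip3, the feedback enzyme A20, was at 3.68, 3.11 and 3.04 CPM and then 3.49, 4.36 and 3.45 CPM and was not called, although it was called higher after the length and GC correction, at 0.59 (edgeR adjusted p = 0.0035).

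Growth and matrix signals were mixed. The immediate early list had 9 rises and 9 falls among 32 tested, but 3 and 12 after the length and GC correction and 7 and 13 with library totals. Its largest rise was Srf, the serum response factor, from 45.4, 47.9 and 49.4 CPM to 95.4, 91.9 and 107 CPM (log2 1.05 ± 0.11). Fosl1 and the ERK phosphatase Dusp5 rose by 0.67 and 0.66, and Klf4 fell by 1.63-fold. After the correction Fosl1 was at 0.29 and no longer called. Among 19 TGF-beta and YAP targets, 7 rose and 5 fell, and 3 fell after the correction or without Mock replicate 1, Mock replicate 2, HT-DNA replicate 1 or HT-DNA replicate 3. Id3, an inhibitor of helix-loop-helix factors, rose from 4.4, 7.98 and 4.51 CPM to 18.4, 16.3 and 18.3 CPM, and Ccn1 rose 2.01-fold. Of 22 matrix and integrin genes tested among 35, 6 rose and 3 fell, a balance that was 5 and 10 with library totals and 9 and 6 after the correction. Among them were the protease inhibitor Timp1 (0.60 ± 0.09) and the matrix protein Thbs2 (-0.70 ± 0.10). Both receptors for platelet-derived growth factor fell: Pdgfra from 70.6, 64.4 and 61.2 CPM to 28.5, 34.2 and 28.3 CPM, and Pdgfrb from 229.9, 229 and 217 CPM to 123, 122 and 112 CPM.

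Outside these lists, the plasminogen activator Plat, chosen after its values were seen, rose from 1.48, 1.58 and 1.9 CPM to 11.5, 13.4 and 13.4 CPM and Hdc, the enzyme that makes histamine, from 0.254, 0.0451 and 0.142 CPM to 5.21, 5.31 and 5.9 CPM. Exosc6, a subunit of the RNA exosome, was at least 63.5-fold higher, with 0 counts in the Mock libraries and 8.89, 7.34 and 9.43 CPM with HT-DNA. DESeq2 did not call it (adjusted p = 0.0941). The rise was not met again in other cultures given HT-DNA. Exosc6 had a mean of 0 CPM with HT-DNA, AOA and aspartate and of 0.676 CPM with HT-DNA and AOA. In absolute terms the 10 largest gains included the cytoskeletal genes Actb (3631 ± 159 CPM to 5379 ± 187 CPM, SD, n = 3) and Tuba1b (1216 ± 30.3 CPM to 2053 ± 77.2 CPM).

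The genes that fell formed the larger side at a change of at least 1. Among the 15 largest falls, Lpin1, a phosphatidate phosphatase and coactivator of lipid genes, went from 29.6, 26.7 and 27.3 CPM to 4.9, 5.73 and 4.76 CPM, a 5.43-fold fall (log2 -2.44 ± 0.17, edgeR adjusted p = 1.3e-08). The long non-coding RNA Neat1, the scaffold of nuclear paraspeckles, went from 277, 311 and 262 CPM to 78.2, 70.5 and 84.6 CPM. Slc5a3, the carrier of myo-inositol, fell from 199, 185 and 173 CPM to 45.5, 62.2 and 51.7 CPM. In each of the 3 genes the highest HT-DNA library lay at less than the lowest Mock library by a wide margin. Stard9, a mitotic kinesin, fell 4.48-fold, Mturn, a regulator of neural differentiation, 6.49-fold and the phospholipid scramblase Plscr4 5.19-fold from a Mock level of 1.52, 1.22 and 1.71 CPM. Hbp1, a repressor of cell cycle genes, fell from 52.2, 48 and 54.2 CPM to 13.9, 15.7 and 14.2 CPM, the smallest standard error of these falls (log2 -1.82 ± 0.09). Another 4 genes were chosen after their values were seen. Klhl24, Pdcd4, an inhibitor of translation initiation, Etv1, an ETS factor, and Crebrf fell by 3.27-, 3.02-, 3.08- and 2.5-fold. Pcdhga8, a protocadherin that shares exons with its cluster, had 34, 25 and 17 counts in Mock and 0 with HT-DNA, at least 7.94-fold lower, and its call was lost on leaving out any 1 of the 6 libraries.

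Lipid genes were the metabolic group that fell most. Of 24 sterol synthesis and LDL uptake genes tested among 27, 16 fell and 2 rose, with a median log2 fold change of -0.31. Only 1 rose by RLE scaling, with library totals, after the length and GC correction or on leaving out any 1 Mock or HT-DNA library. Hmgcs1, an early enzyme of the mevalonate path, fell from 86.6, 85.3 and 87.7 CPM to 37.6, 43.5 and 39.4 CPM. Insig1 and Insig2, which hold the regulator SCAP in the endoplasmic reticulum when sterol is plentiful, fell by 1.59- and 1.91-fold, while Scap itself rose by 1.31-fold. Sqle, squalene epoxidase, fell by 1.33-fold. Hmgcs1 was the only sterol gene to fall by at least 1.

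Of 16 SREBP1 and LXR target genes tested, 9 fell and 1 rose (median -0.29), and 5 fell by at least 1. Scd2, a stearoyl-CoA desaturase, had the largest fall in CPM of all genes called without overlap, on a scale that is not per length, from 1492, 1429 and 1364 CPM to 592, 664 and 549.7 CPM (log2 -1.25 ± 0.09, edgeR adjusted p = 1.8e-08). The fatty acid elongase Elovl6 fell 2.18-fold. Abca1 and Abcg1, which export cholesterol, fell 2.25- and 2.35-fold. The rise was Fasn, fatty acid synthase, from 779, 809 and 719.8 CPM to 959, 946 and 1057 CPM. Falls in genes that bring sterol in and in genes that export it thus stood side by side.

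The stress and nutrient lists differed among themselves. Of 28 genes of the integrated stress and amino acid response tested, 11 fell and 6 rose, with 18 and 2 after the length and GC correction and 15 and 4 with library totals. The falls named are of transporters and a receptor: Vldlr (2.41-fold), the glycine carrier Slc6a9 (2.36-fold), the cystine carrier Slc7a11 (1.98-fold) and the neutral amino acid carrier Slc38a2, from 619, 595 and 574 CPM to 339, 406 and 337 CPM. Asns, asparagine synthetase, stood at 407, 404 and 404 CPM and then at 403, 394 and 360 CPM and was not called, although it was called lower with library totals and after the length and GC correction. Among 21 genes of the unfolded protein response, 8 fell and 4 rose, with the sensors Atf6 and Eif2ak3 at -0.62 and -0.61 and the cochaperone Sdf2l1 at 0.55. After the correction Atf6 was at -0.14 and Sdf2l1 at 0.09, and neither was called. The main chaperone of the compartment, Hspa5, differed by 0.03 ± 0.07 and was not called, but was called higher after the correction, at 0.22 (edgeR adjusted p = 0.000817). In the cytosol, 9 of 15 heat shock proteins rose and 2 fell. The rises included Hspa8, from 1417 ± 12.7 CPM to 2208 ± 26.2 CPM (SD, n = 3), and Hspe1 by 0.52. No rise exceeded 0.64, while 1 called fall was of at least 1 and the lowest value was -2.01. Only 1 fell by DESeq2, with the compared groups alone, with the replicate block, or without Mock replicate 1, Mock replicate 3 or any 1 HT-DNA replicate.

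Smaller groups followed. In the NRF2 list 8 of 17 rose and 3 fell, a balance that was 6 and 6 with library totals and 5 and 5 after the length and GC correction, and 1 fell without HT-DNA replicate 3. It held Hmox1, which breaks down heme, at 0.48 ± 0.08 (0.16 and not called after the correction), and the factor Nfe2l2 itself at -0.42 ± 0.08. In the p53 list 5 of 17 rose and 3 fell (5 with library totals and 1 without HT-DNA replicate 1): Phlda3 rose 1.85-fold, Trp53inp1 fell 2.59-fold, and the cell cycle inhibitor Cdkn1a, at 73.7, 73.3 and 80.3 CPM and 72.9, 69.3 and 77.4 CPM, was not called, but was called lower after the correction, at -0.32 (edgeR adjusted p = 4.7e-05). Of 27 HIF and glycolysis genes 12 rose and 4 fell (7 with library totals), with lactate dehydrogenase Ldha at 0.59, Pfkfb3 at 0.69 and Ndrg1 at -0.75. The median of this list changed sign with library totals, from 0.07 to -0.04. Of 32 lysosome and autophagy genes 13 fell and 7 rose, with the rises down to 3 with library totals or without Mock replicate 1, Mock replicate 2 or HT-DNA replicate 1 and to 4 without HT-DNA replicate 3, and the falls up to 20 with library totals. The list held the lysosomal regulator Mitf at -1.18 ± 0.15 and alpha-galactosidase Gla at -0.63 ± 0.09. Of 17 inflammasome and cell death genes 6 fell and 3 rose (1 with library totals), with the caspases Casp8 and Casp4 at -0.77 and -0.67 and the pore protein Bak1 at 0.63. Clock genes had 6 falls and 2 rises (1 with library totals) among 18: Per3 went from 10.3, 11 and 9.44 CPM to 3.44, 4.26 and 3.36 CPM, and Bmal1 fell 1.53-fold.

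**Figure D3:**
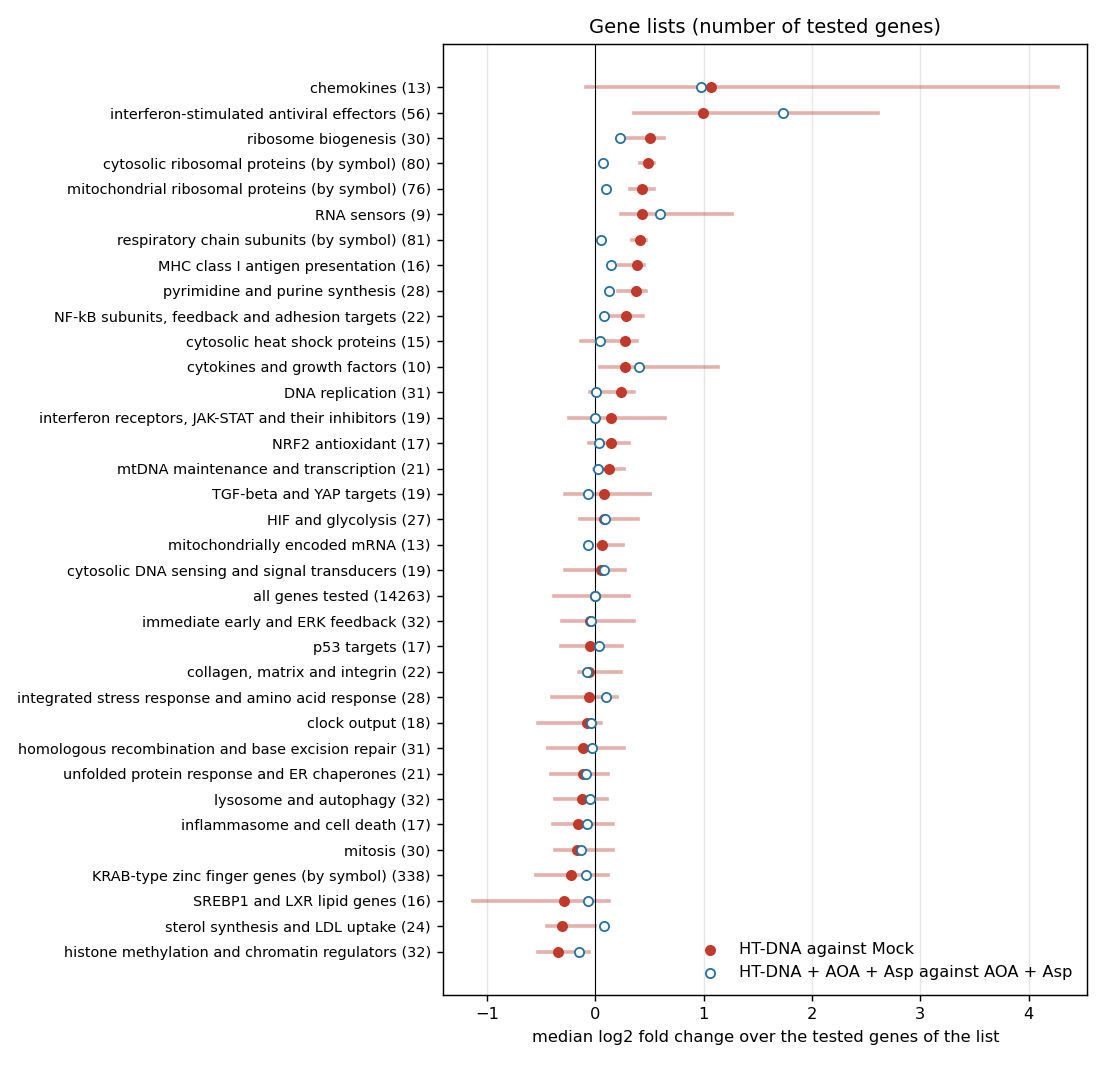
Median log2 fold change over the tested genes of each list (horizontal axis), with filled points for HT-DNA against Mock, bars for the middle 50% of its genes, and open points for HT-DNA with AOA and aspartate against AOA and aspartate. Antiviral effectors and chemokines have medians of 1.00 and 1.07 without AOA and a wide spread, the ribosomal and respiratory lists have medians of 0.41 to 0.51 with a narrow spread, and sterol genes and chromatin regulators have medians of -0.31 and -0.34.

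The protein synthesis lists shifted upward nearly as a whole and by small amounts. Of 80 cytosolic ribosomal proteins tested, 76 rose and none fell, with a median log2 fold change of 0.49. Rplp0 and Rpsa, components of the large and the small subunit, went from 2941 ± 94.3 CPM to 3990.3 ± 239 CPM and from 1961 ± 95.9 CPM to 2788 ± 198 CPM (SD, n = 3). Of 76 mitochondrial ribosomal proteins 68 rose, of 30 ribosome biogenesis genes 23 rose, and in neither list did any fall (medians 0.43 and 0.51). The ribosomal RNA processing factors Rrp9, Nop2, Bysl and Nop16 rose by 1.04, 0.75, 0.75 and 0.74. Rrp9, for example, stood at 83.2, 92.3 and 86.9 CPM in Mock and at 184, 161 and 193 CPM with HT-DNA. Nuclear-encoded respiratory chain subunits rose in 64 of 81 genes and fell in 2 (median 0.41).

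These counts depended on the treatment of gene length, on which more is given below. After removing each library's trend on gene length and GC content, 38 cytosolic ribosomal proteins, 49 mitochondrial ribosomal proteins and 24 respiratory chain subunits were called higher. The count for ribosome biogenesis was 26 and that for nucleotide synthesis 22 after the same correction. With library totals, 42 respiratory chain subunits were called higher, and leaving out Mock replicate 1 or HT-DNA replicate 1 gave 36. Of the 13 mRNAs encoded in mitochondria, 4 rose, with a median of 0.06 that became -0.05 with library totals, and 2 rose without Mock replicate 2, Mock replicate 3 or HT-DNA replicate 1. mt-Co3 was uneven within Mock, at 626, 155 and 509 CPM against 970.2, 1012 and 672 CPM, and its call was lost without Mock replicate 2, Mock replicate 3, HT-DNA replicate 1 or HT-DNA replicate 2, with the replicate block (edgeR adjusted p = 0.0792), with library totals, with the compared groups alone and after the correction. Of 21 genes that maintain mitochondrial DNA, 6 rose and 3 fell, and the coactivator Ppargc1a fell from 10.5, 9.37 and 9.11 CPM to 3.44, 4.88 and 3.89 CPM.

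Nucleotide synthesis rose in 21 of 28 genes and fell in 4 (median 0.37). The trifunctional enzyme Cad, which uses aspartate to begin the pyrimidine ring, rose from 405, 405 and 368 CPM to 479, 479 and 518 CPM. The later steps Dhodh and Umps rose by 0.61 ± 0.09 and 0.51 ± 0.06. The salvage enzymes Aprt, Uck1 and Upp1 rose by 0.81, 0.70 and 0.64, and Uprt fell by 2.01-fold.

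Cell cycle genes did not move in 1 direction. Of 31 DNA replication genes 16 rose and 3 fell (8 with library totals, 5 after the length and GC correction; median 0.24): the cyclin Ccne1 rose by 0.72 ± 0.10 and the ribonucleotide reductase subunit Rrm2 by 0.59 ± 0.08, whereas the polymerase subunits Pole and Pola1 fell by 1.6- and 1.56-fold. Of 30 mitosis genes 12 fell and 8 rose, but 7 fell without Mock replicate 2, 5 fell without HT-DNA replicate 1, and after the correction 8 fell and 10 rose. The list held the kinases Cdk1 and Plk1 at 0.63 and 0.53 and the kinetochore and spindle proteins Cenpf and Nusap1 at -0.71 and -0.62. Cenpf was at -0.08 and not called after the correction. Of 31 DNA repair genes 11 fell and 8 rose (5 without Mock replicate 1, Mock replicate 2 or HT-DNA replicate 3, and 4 with library totals), among them Brca1, from 52.4, 50.5 and 45.8 CPM to 22.8, 29.1 and 23.7 CPM, Rad51c at -0.94 and the gap-filling polymerase Polb at 0.55. After the correction 7 repair genes fell and 10 rose, and the repair median, -0.11, was 0.01.

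Large regulators of chromatin were lower. Of 32 members 18 fell and 4 rose, with a median of -0.34. The remodelling ATPase Smarca2 went from 5.29, 5.45 and 4.84 CPM to 2.48, 2.79 and 2.49 CPM. The methyltransferase Kmt2a, the demethylase Kdm6a and the DNA dioxygenase Tet2 fell 1.77-, 1.76- and 1.98-fold. After the length and GC correction 8 of these 32 genes were called lower, with a median of -0.02, and Tet2 was not among them. Of 338 Zfp zinc finger genes tested, 115 fell (34.0%) and 40 rose (11.8%), a median of -0.22. After the correction 74 fell and 43 rose. With library totals 20 rose, without Mock replicate 1 26 and without HT-DNA replicate 3 25.

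Fold change ran with gene length across the whole table. The 13912 tested genes with a known exon length (97.5%) were divided into 10 classes by the summed length of their exons. The median log2 fold change went from 0.31 in the shortest class (0.069 to 1.36 kb) through 0.00 in the sixth to -0.40 in the longest (9.4 to 123 kb). In the longest class 59.3% of genes were called lower and 5.82% higher, and in the shortest 5.95% lower and 30.9% higher. The median exon length was 3.05 kb for genes called higher, 6.26 kb for genes called lower and 3.72 kb for the rest. Over these genes, which share the 6 libraries and are not independent, Spearman's rho between length and fold change was -0.35. The median length of the chromatin regulators was 10.8 kb and that of the cytosolic ribosomal proteins 1.75 kb, against 3.91 kb for the antiviral effectors and 3.91 kb over all genes tested. Of the 145 genes called among those named here, 48 had a log2 fold change smaller by over 1.5 times after the length and GC correction, 0 changed sign and 11 lost the call.

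An RNA that stays in the nucleus and a set of receptor genes were also lower, and were looked at after their values were seen. Malat1, a nuclear long non-coding RNA, was at 400, 387 and 377 CPM in Mock and at 205, 235 and 212 CPM with HT-DNA. The counts assigned to 2010 olfactory and vomeronasal receptor genes, which fibroblasts do not need, summed to 171 to 176 CPM in Mock and to 114 to 127 CPM with HT-DNA. Whether these counts come from nuclear RNA was not tested. The share of counts in all long non-coding RNAs did not move, at 2.04, 2.04 and 2.08% in Mock and 2.16, 1.99 and 2.06% with HT-DNA. After the length and GC correction Malat1 was at -0.36 and not called (edgeR adjusted p = 0.0861), beside -0.84 before it. The part of nuclear RNA in the shifts by length was not tested.

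**Figure D4:**
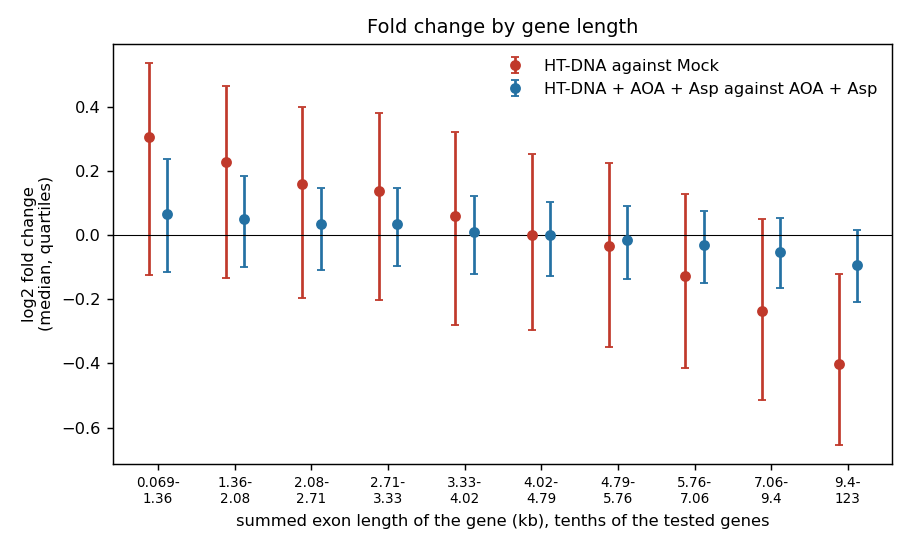
Median log2 fold change in 10 classes of exon length (horizontal axis, in order, with the limits of each class in kb), with the middle 50% of genes, for HT-DNA against Mock and for HT-DNA against no DNA in cells with AOA and aspartate. The medians run from 0.31 to -0.40 in the first and from 0.07 to -0.09 in the second.

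The same DNA given to cells with AOA and aspartate gave values for the same genes in other cultures. These libraries shared 1 model with those of HT-DNA and Mock, and so its filter and estimate of spread. There, HT-DNA against no DNA called 275 genes higher (1.93% of genes tested) and 217 lower (1.52%). These cells also received AOA and aspartate, so the background of this pair of groups is another one. Of the 189 genes higher by at least 1 without AOA, 168 had the same sign in these libraries and 83 were called higher there (43.9%). Of the 434 lower by at least 1, 354 had the same sign and 37 were called lower (8.53%). The median log2 fold change of the first set was 1.36 without and 0.71 with AOA and aspartate, and that of the second -1.26 and -0.32. Over all 3454 genes called higher the medians were 0.43 and 0.10, and over all 3425 called lower -0.55 and -0.15. The sets were chosen by their values in the first comparison and not in the second, and no test was made on these medians.

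The antiviral effectors had a higher median there and the chemokines a slightly lower one. With AOA and aspartate 38 effectors were called higher, with a median of 1.73 beside 1.00, and the chemokine median was 0.98 beside 1.07. Ifit1 had log2 fold changes of 7.90 and 7.93, Oasl1 of 6.20 and 6.25, Isg15 of 5.26 and 5.09, and Rtp4 of 4.03 and 4.07. Ccl2 and Ccl7 had 1.07 and 0.96, and 1.33 and 1.14. The test of the difference itself called none of these 6 genes, with standard errors of the difference from 0.12 (Ccl2) to 0.45 (Ifit1), which does not show that they are equal. Rigi, by contrast, rose by 1.26 without and by 2.10 with AOA and aspartate (edgeR adjusted p of the difference = 0.0344). Other genes lay further apart without a called difference, such as Rsad2 at 6.26 and 8.08 and the RNA sensor Ifih1 at 3.61 and 5.04. Of the 56 effectors tested, the difference was called as a larger response for 1 and as a smaller one for 0.

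Some falls were met again as well. Hbp1 fell in both, at -1.82 and -1.03, as did Klhl24 at -1.71 and -1.32, Pdcd4 at -1.59 and -1.30, and Crebrf at -1.32 and -1.02. The difference was called for Hbp1 and not for the other 3. Klhl24, Pdcd4 and Crebrf were named after their values were seen, and are among the 37 of 434 falls called lower in both responses. That they fell again is therefore no test of the response.

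The length-ordered and lipid shifts were smaller in these libraries. The medians by length class ran from 0.07 to -0.09. The cytosolic ribosomal proteins had a median of 0.07, respiratory chain subunits 0.05, ribosome biogenesis 0.23 and chromatin regulators -0.15. The sterol list had a median of 0.08, and the difference between the responses was called for 12 of its 24 genes. Neat1, at -1.86 without AOA, had -0.08 in these libraries, and Scd2 had -1.25 and -0.08. Neat1 was at 283 CPM in Mock and 77.8 CPM with HT-DNA, but at 498 CPM with AOA and aspartate and at 470.2 CPM when HT-DNA was added. Across all genes the difference between the responses was called for 891 (6.25% of genes tested). That count rested on single libraries: it was 129 without AOA with aspartate replicate 2, 138 without HT-DNA replicate 3, 146 without Mock replicate 1 and 1085 without HT-DNA replicate 2.

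**Figure D5:**
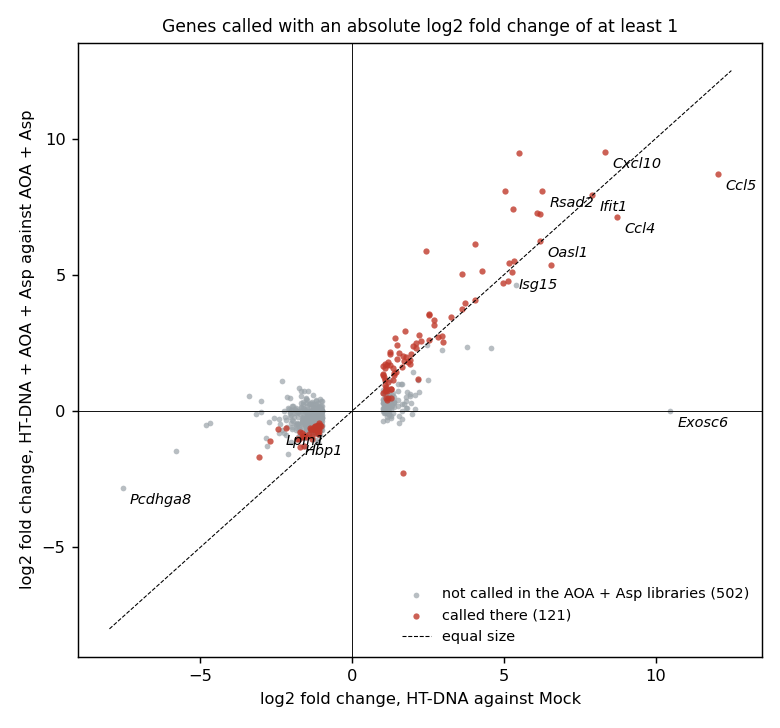
Log2 fold change to HT-DNA in cells with AOA and aspartate (vertical axis) against that without AOA (horizontal axis), for the genes called with an absolute change of at least 1. Ifit1, Oasl1 and Isg15 lie near the line of equal size, and of the 434 falls 37 were also called lower with AOA and aspartate.

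In cells with AOA and no aspartate, HT-DNA was followed by larger rises of the same antiviral genes, given here side by side with the response without AOA. Ifit1 had log2 fold changes of 7.90 without and 10.42 with AOA (edgeR adjusted p of the difference = 0.00583). Irf7 had 1.00 and 3.13. Ifit2, not called without AOA, had 2.45 with it, and the difference was called (edgeR adjusted p = 1.8e-05). Of the 56 effectors tested, 55 were called higher with AOA, beside 6.46% of all genes tested, and for 36 the response was called larger than without, beside 7.23% of all genes. The filter used these libraries too, so a member could be tested because it was high with AOA, which favours both counts.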

How the data were processed

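RNA was harvested with TRIzol and sequenced from 18 cultures of L929 cells, 6 groups of 3, and 1 table of 57180 genes was used. The authors deposited expected counts, estimates of the reads of each gene that were not normalised. Of the deposited expected count values 11.6% were not whole, and they were rounded here before testing. Their aligner, counter, genome build and strand setting are not given in the sources used here, so antisense and near-identical genes cannot be told apart in full. The table also held 6 columns of group means, which were not used. The 18 library columns were matched to the labels by name.

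Genes were kept by filterByExpr (at least 10 counts in the smallest number of libraries and 15 in all), which left 14263. All 18 libraries entered 1 model with a mean for each group, fitted in edgeR 4.0.16 (R 4.3.3) with trimmed mean (TMM) scaling and the robust quasi-likelihood test, and p-values were adjusted over all genes tested by Benjamini and Hochberg. Standard errors came from the curvature of the fit, that is, its information matrix times the quasi-likelihood dispersion. Fitted folds of genes without counts in a group depend on the prior count, so bounds at 3 counts in each library were given. Counting intervals of 95% are exact binomial intervals and, like the bounds, cover counting error only. Exon lengths came from GENCODE vM21, and promoter windows from RefSeq (GRCm38.p6), matched by symbol for 9852 of the genes tested.

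The 35 gene lists and the named genes were chosen with earlier results of these data known. Any gene of a list could be named, with at most 4 called genes a list plus those whose role the text needs. Outside the lists, the 15 largest rises and falls in fold and the 10 largest in CPM could be named, where the libraries did not overlap, the higher group had a mean of at least 1 CPM and the symbol was not of the Gm or Rik kind. Other names are marked in the text. Some genes of the lists count in the totals and are not reported here by name.

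Alternatives were DESeq2 1.42.0, other scalings and filters, libraries of the compared groups alone, a replicate block, a change of at least 1, each library left out and, added after seeing the data, a loess correction (span 0.3) for length and GC content. Counts of 13966 genes were simulated with the spread and library sizes of these data. In HT-DNA, 100 genes were changed by 1 on the log2 scale and 100 by 2, all with a mean of at least 1 CPM. Of these, 90% and 100% passed, and genes without a change made up 5.47% of all calls. No shift with gene length was put in and far fewer genes changed than were called in the data. The share of false calls in HT-DNA against Mock was therefore not measured.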

Additional observations from a re-analysis of the deposited data

Results flagged for a closer look

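The response to HT-DNA with AOA and aspartate minus the response without AOA was called for 891 genes, by the interaction term of the edgeR model at an adjusted p under 0.05. Of 24 sterol genes, 12 had a higher value in the first response, that is, a smaller or no fall. The 2 responses share no library. Most genes named below were chosen by the size of their change in HT-DNA against Mock, which this difference subtracts. That choice favours a smaller fall or rise in the other response. Among all genes called lower, 435 had a called difference, and all 435 were smaller with AOA and aspartate. Among those called higher it was 420 of 425. The count of 891 moved by over 1.5 times on leaving out most single libraries.

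Differences are on the log2 scale, as the response with AOA and aspartate minus that without. A positive value beside a fall is a smaller fall. The levels without DNA differed between the backgrounds, in both directions. Lpin1 was at 27.9 CPM in Mock and 13.4 CPM with AOA and aspartate, and Slc5a3 at 186 and 219 CPM. The lipid genes gave Lpin1 1.78, Scd2 1.17, Elovl6 0.83, Hmgcs1 0.94, Insig1 0.79, Insig2 0.65 and Sqle 0.56. The amino acid response genes gave Vldlr 1.16, Slc6a9 0.69 and Slc7a11 1.00, and the remaining metabolic genes Ndrg1 0.77, Mitf 0.82, Ppargc1a 1.06 and Uprt 0.79. The clock genes gave Per3 1.06 and Bmal1 0.61. The other falls gave Thbs2 0.77, Pdgfrb 0.51, Hbp1 0.78, Mturn 1.59, Etv1 0.71, Stard9 1.55, Plscr4 1.92, Neat1 1.78, Slc5a3 1.37, Atosa 1.34 and Nlrc5 0.69.

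Among genes that rose without AOA, a negative value is a smaller rise. The signalling and growth genes gave Cx3cl1 -0.53, Hbegf -0.54, Cd40 -0.85, Srf -0.76, Id3 -1.93, Ccn1 -1.01 and Timp1 -0.48. The ribosome biogenesis genes gave Rrp9 -0.75, Bysl -0.42 and Nop16 -0.53, the nucleotide genes Aprt -0.60, Uck1 -0.60, Dhodh -0.51 and Umps -0.32, and the remaining genes Hspa8 -0.51, Cdk1 -0.63, Plk1 -0.58, Phlda3 -0.56, Bak1 -0.56 and Tuba1b -0.50. The RNA sensor Rigi, at 0.83, rose more with AOA and aspartate, and Cxcl1, not called without AOA, gave 0.61.

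For the response with AOA and no aspartate minus that without AOA, the difference was 2.51 for Ifit1, 2.47 for Ifit2 and 2.13 for Irf7, and 36 of 56 effectors had a larger response with AOA, beside 7.23% of all genes tested.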

How the results depend on the processing

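The count of genes called in HT-DNA against Mock stayed within 1.5 times of 6879 under every alternative other than the fold minimum: 6959 by DESeq2, 6879 by RLE scaling, 6845 with library totals, 6685 with at least 10 counts in every library, 6533 with no filter, 7699 with only the groups compared, 6095 after the length and GC correction, of which 4542 were shared, and 5442 to 6663 with 1 library left out. A change of at least 1 left 623 (189 higher, 434 lower), 103 with AOA and aspartate and 96 for the difference. It left 25 effectors, 1 sterol gene, 1 ribosome biogenesis gene, 1 chromatin regulator and 0 cytosolic ribosomal proteins, 0 mitochondrial ribosomal proteins and 0 respiratory subunits. At least 10 counts in every library left 36 effectors and 6 chemokines to test, of which 25 and 3 were called. The response with AOA and aspartate (492) was less stable: 739 by DESeq2, 1896 with only its own groups, 1224 after the length and GC correction and 232 to 418 with 1 library left out. The difference (891) was 1886 by DESeq2, 2192 with no filter, 4409 with only its own groups, 1523 after the correction and 129 to 1085 with 1 library left out. After the correction 8 chromatin regulators, 38 cytosolic ribosomal proteins and 24 respiratory subunits were called, the last 42 with library totals and 36 to 68 with 1 library left out. The correction removes any change that runs with length, whatever its source.

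Of 2135 values of 154 named genes under the alternatives, 2104 kept the call or its absence, 26 lost the call and 5 gained it. Where the main or the alternative fit called the gene, 0 changed sign. Signs were not compared for genes called in neither. The cause of the lost and gained calls was not tested. Same-numbered Mock and HT-DNA libraries did not deviate together (correlations of 0.00187, 0.0187 and 0.0221 across genes), so no pairing by number was detected. These values cannot exclude that same-numbered cultures were handled together with a small effect. With the replicate block 6952 genes were called, 491 with AOA and aspartate and 1048 for the difference. Depth limits the interferon genes and the Mock values of Ccl5, Cxcl10 and Ifit3b, which rest on 0 to 6 counts.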
